A study of Urocitellus parryii with 44 samples.

Results

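Enzymes of serine synthesis, one-carbon transfer and the methionine cycle were described in brown adipose tissue of arctic ground squirrels (Urocitellus parryii). They were chosen by name: every probe whose single gene symbol was Psat1, Phgdh, Psph, Shmt1, Shmt2, Mthfd1, Mthfd2, Mat2a, Mat2b or Ahcy. The search found 9 of the 10 genes, of 11626 genes named by a single symbol, with 25 of 38400 probes, and all 25 could be tested. Mat2a, the catalytic partner of Mat2b, had no probe with that symbol and was not analysed here. The study compared 5 squirrels in winter torpor, in which a hibernator's metabolic rate and temperature drop, with 3 summer active squirrels taken in August. No age, sex, genotype or treatment is given for either group, and season and activity state differ together. Total RNA labelled with radioactive phosphorus (33P) was hybridised to mouse cDNAs spotted on the 4 membranes MA07, MA08, MA10 and MA11, and 3 RNAs (torpid animal 5 and summer animals 1 and 2) were measured in duplicate. A level below is the log2 of a spot's intensity over the median of its column, and a difference is torpor minus summer on that scale. The probes are of mouse and the RNA of squirrel, so each symbol names the mouse gene, and levels of different probes cannot be set against each other.

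Cells make serine from a glycolytic intermediate in 3 steps, catalysed by Phgdh, Psat1 and Psph. Serine hydroxymethyltransferases (Shmt1 in the cytosol, Shmt2 in mitochondria) pass 1 carbon of serine to folate, and Mthfd1 and Mthfd2 interconvert the folate-bound forms that feed purine and thymidylate synthesis. Methionine adenosyltransferase makes S-adenosylmethionine, the methyl donor of the cell. In most tissues its catalytic subunit is Mat2a and its regulatory subunit Mat2b, and Ahcy clears the S-adenosylhomocysteine that methyl transfer leaves.

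Duplicates of the same RNA had Spearman correlations from 0.761 to 0.947 over probes, with median gaps from 0.23 to 0.87 on the log2 scale. MA10, which holds 7 of the 25 probes, had the most empty cells, 6.38%, and a median standard error of 0.43, above the 0.29 over all membranes. On it, the first duplicate of summer animal 2 stood farthest from the other columns, with a median Spearman correlation of 0.769. The second duplicate of summer animal 1 came next, at 0.810 against 0.870 for the first duplicate, and it had a summed intensity of 64078, against 35011 to 43038 in the other columns of MA10, with 9.11% of cells empty. Of 15 brown adipocyte markers, 9 had tested probes; Ucp1, Cox7a1, Adrb3, Plin1, Adipoq and Fabp4 had no probe under these symbols, so the defining uncoupling protein was not analysed here. Of the 12 brown adipocyte marker probes, 3 were above and 9 below 0, with a median difference of -0.40. By limma 0 passed the threshold and 0 had an unadjusted p under 0.05, against 11.6% of all tested probes. The mean level over the 11 marker probes with a value in every animal ran from -0.15 to 0.089 in torpid animals and from 0.24 to 0.49 in summer animals, without overlap. At each brown adipocyte marker probe alone the groups overlapped, where 8.5% of all tested probes had groups without overlap. The mean levels of the other marker lists, given below, overlapped. How far the brown marker level moves with the enzyme probes described below was not tested. In bulk tissue, fewer cells of a type and less RNA per cell cannot be told apart.

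The enzyme probes lay on both sides of 0. Differences were above 0 for 15 of the 25 probes and below 0 for 10, with a median of 0.11, where 50% of all tested probes were above 0 and the median was close to 0. By limma with Benjamini-Hochberg adjustment over all tested probes, 1 of the 25 passed an adjusted p of 0.05, a Mat2b probe that was higher in torpor, against 0.309% of all tested probes (0.259% higher and 0.0502% lower). Before adjustment, 3 of 25, or 12%, had a limma p under 0.05, against 11.6% of all tested probes (6.39% higher and 5.18% lower), so that the share lay close to the background. The same 3 probes, of Mat2b, Psat1 and Shmt1, were those whose torpid and summer animals did not overlap, against 8.5% of all tested probes. For 20 of the 25 the difference was smaller than 0.5 in size, and the median standard error was 0.28.

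**Figure D1:**
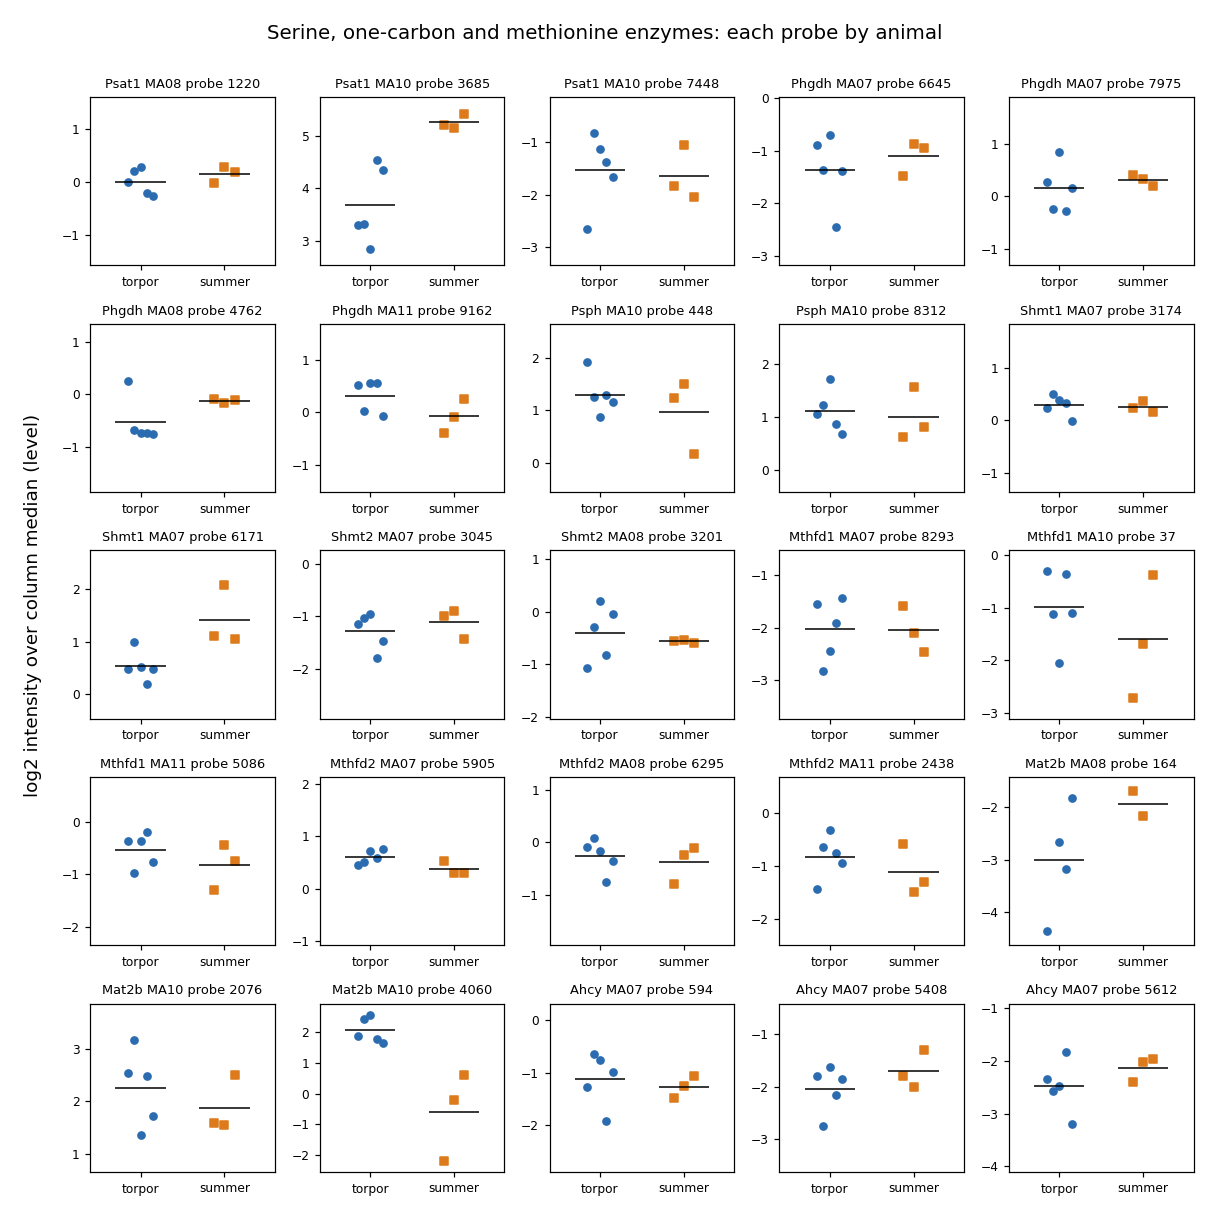
Level of each of the 25 probes (log2 intensity over the column median, y axis) in 5 torpid (circles) and 3 summer animals (squares), with group means as lines; the y axis is centred on each probe and its range is not the same in every panel. The groups lie apart for Psat1 probe 3685, Shmt1 probe 6171 and Mat2b probe 4060, and overlap for the other 22.

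**Figure D2:**
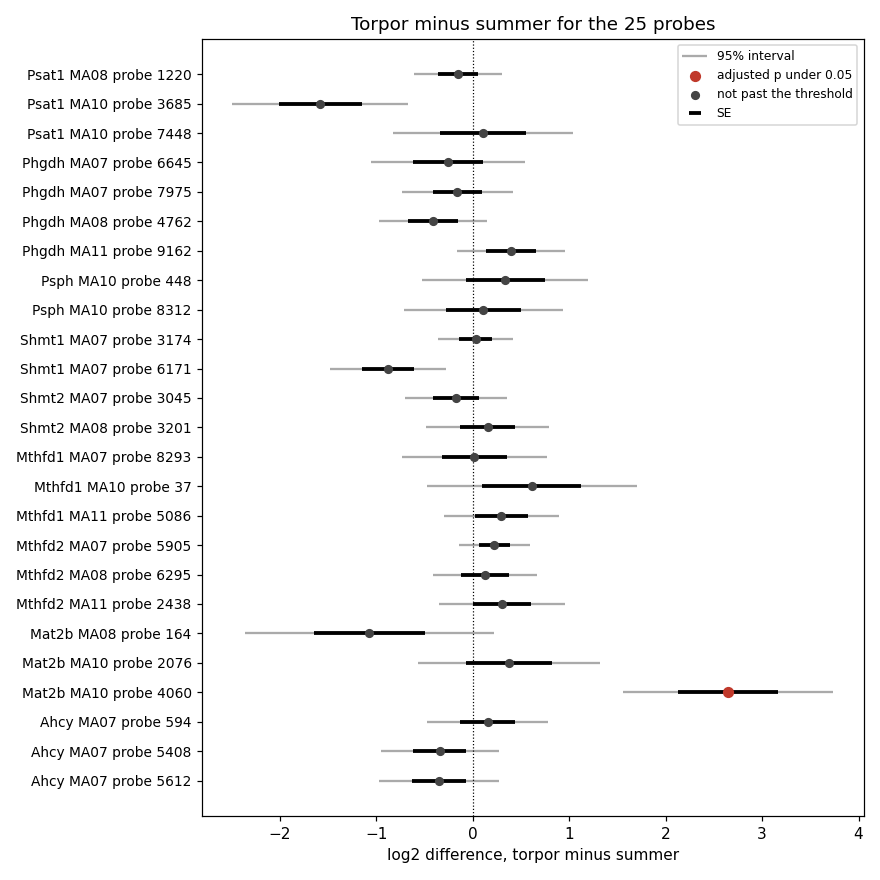
Torpor minus summer on the log2 scale for the 25 probes, with the standard error (thick) and the 95% interval (thin) from limma. Mat2b probe 4060 at 2.65 is the single one past the adjusted threshold, and probes of the same gene often lie on both sides of 0.

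Serine synthesis was represented by 9 probes. By limma 0 of the 9 passed the threshold, against 0.309% of all tested probes. Before adjustment 1 of the 9 had a limma p under 0.05, against 11.6% of all tested probes, so that the share lay close to the background. Phgdh, phosphoglycerate dehydrogenase, is the entry step. Its probe 4762 on MA08 had levels of 0.25, -0.68, -0.73, -0.74 and -0.76 in torpid animals 1 to 5, against -0.094, -0.16 and -0.100 in summer animals 1 to 3. Torpid animal 1 was the highest of all 8 and the other 4 torpid animals were below every summer animal. The level of summer animal 1 is the mean of 0.33 and -0.52 in its duplicates. Its first duplicate was above torpid animal 1, and its second was still above the other 4 torpid animals. The difference was -0.41 ± 0.26 (SE; limma adjusted p = 0.57), with a 95% interval from -0.98 to 0.15. Probe 9162 on MA11 is of the same cDNA clone and gave 0.40 ± 0.26 (adjusted p = 0.59), with levels of 0.52, 0.027, 0.57, 0.56 and -0.059 in torpid animals, against -0.39, -0.077 and 0.25 in summer animals. The signs on the 2 membranes were opposite for 1 clone. Both Phgdh probes on MA07, 6645 and 7975, were slightly negative, at -0.26 ± 0.36 and -0.16 ± 0.26. The 95% intervals of probes 9162, 6645 and 7975 ran from -0.16 to 0.95, from -1.06 to 0.55 and from -0.73 to 0.41. Of the 4 Phgdh intervals, only that of probe 6645 held a fall of 1 log2 unit, and none held a rise of that size. These limits hold for each probe alone, and the probes differed in sign.

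Psat1, phosphoserine aminotransferase, catalyses the middle step and had 3 probes. Probe 3685 on MA10 had levels of 3.30, 3.33, 2.85, 4.55 and 4.35 in torpid animals 1 to 5, against 5.20, 5.14 and 5.42 in summer animals 1 to 3. Every torpid animal was below every summer animal, and the torpid animals were spread over a wider range (3.68 ± 0.74, SD, n = 5) than the summer animals (5.26 ± 0.15, SD, n = 3). The difference of -1.58 ± 0.43 (SE), a torpor to summer ratio of 0.334, had an unadjusted p of 0.0019 by limma and did not pass after adjustment (adjusted p = 0.15). Its 95% interval ran from -2.49 to -0.67. The duplicates of this probe lay close together, at 4.27 and 4.44 for torpid animal 5, 4.99 and 5.42 for summer animal 1, and 4.75 and 5.53 for summer animal 2. With 1 animal left out in turn the difference stayed between -1.80 and -1.37, and the adjusted p between 0.13 and 0.31.

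The other Psat1 probes did not show this difference. On MA08, probe 1220 gave 0.0091, 0.21, 0.28, -0.20 and -0.26 in torpid animals, against -0.0099, 0.29 and 0.20 in summer animals, and its difference of -0.15 ± 0.21 had an interval from -0.61 to 0.30 that does not reach -1.58. On MA10, probe 7448 gave 0.11 ± 0.44, with an interval from -0.83 to 1.04. Probe 3685 is among the brightest of MA10, at percentile 97.7 of mean signal, and probes 1220 and 7448 stood at percentiles 54.8 and 24.3 of their membranes. Of the 240 brightest tested probes of MA10, 23.3% had groups that did not overlap, the median difference was -0.22 and 5.83% had a difference at or below that of the Psat1 probe. MA10 also held 16 of the 19 probes called lower on all 4 membranes. With quantile normalization between columns the difference was -1.34 ± 0.45 (limma adjusted p = 0.25), and with cyclic loess between columns -1.47 ± 0.44 (limma adjusted p = 0.17). The part of brightness or membrane in the Psat1 value was not tested.

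Psph, phosphoserine phosphatase, completes serine synthesis. Its probes 448 and 8312, both on MA10, gave 0.34 ± 0.41 and 0.11 ± 0.39, with upper limits of 1.20 and 0.94 and lower limits of -0.53 and -0.72. The levels of probe 448 were 1.93, 1.25, 0.88, 1.29 and 1.16 in torpid animals, against 1.23, 1.5 and 0.17 in summer animals. Only summer animal 3 lay below the range of the torpid animals. The level of torpid animal 5 is the mean of 2.12 and 0.20 in its duplicates, and the second is close to summer animal 3.

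Shmt1, the cytosolic serine hydroxymethyltransferase, had 2 probes on MA07 that differed from each other. Probe 6171 had levels of 0.47, 0.99, 0.51, 0.20 and 0.48 in torpid animals 1 to 5, against 1.10, 2.07 and 1.05 in summer animals 1 to 3. All torpid animals were lower, although torpid animal 2 and summer animal 3 were only just apart. The difference was -0.88 ± 0.27 (SE), a ratio of 0.544, with an unadjusted p of 0.0087 and an adjusted p of 0.25 by limma. Without summer animal 2, whose level was the highest, the difference was -0.55 (adjusted p = 0.36). Probe 3174 was level between the groups, at 0.28 ± 0.19 (SD, n = 5) in torpor and 0.25 ± 0.11 (SD, n = 3) in summer. Its difference of 0.029 ± 0.18 had an interval from -0.36 to 0.42, which does not reach the -0.88 of probe 6171. The interval of probe 6171 itself ran from -1.48 to -0.27, so the intervals of the 2 probes overlapped.

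Shmt2, the mitochondrial form, gave -0.17 ± 0.24 by probe 3045 on MA07 and 0.15 ± 0.29 by probe 3201 on MA08, with intervals within -0.70 to 0.79. On MA08 the 3 summer animals lay between -0.58 and -0.53, and the torpid animals spread around them from -1.07 to 0.21.

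The folate enzymes Mthfd1 and Mthfd2 had positive differences at all 6 probes, none past the threshold, where 50% of all tested probes were above 0. By limma 0 of the 6 had an unadjusted p under 0.05, against 11.6% of all tested probes. Mthfd1 is the cytosolic enzyme with 3 activities on the folate-bound carbon. It gave 0.018 ± 0.34 on MA07, 0.61 ± 0.52 on MA10 and 0.30 ± 0.27 on MA11. Without summer animal 1 the values on MA10 and MA11 were 0.054 and 0.062, and with 1 animal left out in turn they ran up to 1.22 and 0.49. On MA10 (probe 37) the levels were -0.31, -1.13, -2.05, -0.35 and -1.09 in torpid animals, against -2.71, -1.70 and -0.39 in summer animals, a spread of more than 2 log2 units among the summer animals alone. Mthfd2, the mitochondrial dehydrogenase and cyclohydrolase, had the tightest measurement of all 25 probes. Its probe 5905 on MA07 had levels of 0.45, 0.50, 0.72, 0.60 and 0.75 in torpid animals, against 0.53, 0.31 and 0.30 in summer animals. The difference was 0.22 ± 0.16 (adjusted p = 0.64 by limma), with an interval from -0.14 to 0.59, so a rise or fall of 1 log2 unit is outside it. The MA08 and MA11 probes of Mthfd2 gave 0.13 ± 0.25 and 0.30 ± 0.30.

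Mat2b held the called probe. Probe 4060 on MA10 had levels of 1.88, 2.42, 2.57, 1.78 and 1.66 in torpid animals 1 to 5, against -2.18, -0.20 and 0.62 in summer animals 1 to 3. Every torpid animal was above every summer animal. The torpid animals lay close together (2.06 ± 0.41, SD, n = 5), and the summer animals did not (-0.58 ± 1.44, SD, n = 3). The difference was 2.65 ± 0.52 (SE), 6.27-fold higher in torpor, with an adjusted p of 0.040 by limma and a 95% interval from 1.56 to 3.74.

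The size of the Mat2b difference rested on 1 column. The level of summer animal 1 is the mean of -5.78 in its first duplicate and 1.42 in its second, from the same RNA. This gap of 7.20 was the largest of the 8473 probes of MA10 measured in both duplicates of that animal, whose median gap was 0.87. In the first duplicate the probe was among the dimmest 0.0992% of the membrane. For the other duplicated RNAs this probe gave 1.75 and 1.57 in torpid animal 5 and -0.64 and 0.25 in summer animal 2. With the first duplicate of summer animal 1 on MA10 left out, the summer levels were 1.42, -0.20 and 0.62 (0.62 ± 0.81, SD, n = 3). All 5 torpid animals were still higher, from 1.66 to 2.57, but the difference was 1.45 ± 0.44 (2.73-fold; limma adjusted p = 0.20) and no longer passed. This alternative was chosen after seeing the data, and the column it keeps is the one with the raised summed intensity described above.

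Other ways of using the columns moved the value too. With first duplicates alone the Mat2b difference was 4.02 (adjusted p = 0.055), and with second duplicates alone 1.28 (adjusted p = 0.31). Without summer animal 1 it was 1.85 (adjusted p = 0.060 by limma). Leaving out 1 animal in turn, the call remained only without summer animal 3 (3.25, adjusted p = 0.014). It was lost without any of torpid animals 1 to 5 (2.52 to 2.75, adjusted p from 0.053 to 0.10) and, at 2.84, without summer animal 2 (adjusted p = 0.051). In all 19 alternatives the difference was above 1.2.

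**Figure D3:**
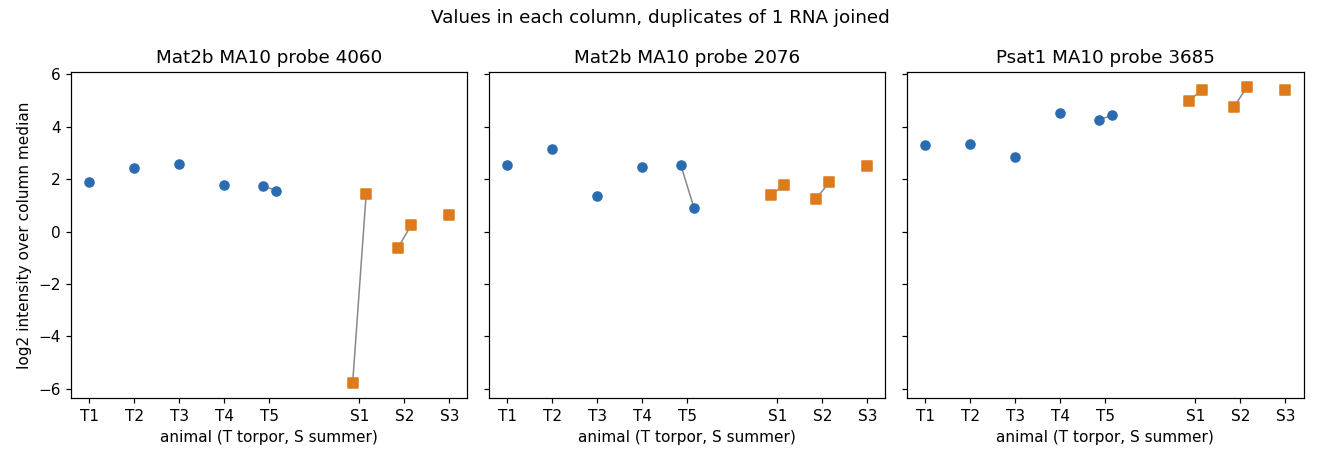
Level in each column of MA10 (log2 intensity over the column median, y axis) for Mat2b probes 4060 and 2076 and Psat1 probe 3685, by torpid animals 1 to 5 (T, circles) and summer animals 1 to 3 (S, squares), with duplicates of 1 RNA joined. The first duplicate of summer animal 1 lies at -5.78 for Mat2b probe 4060, 7.20 below its partner, while the duplicates of the Psat1 probe lie within 1 log2 unit.

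**Figure D4:**
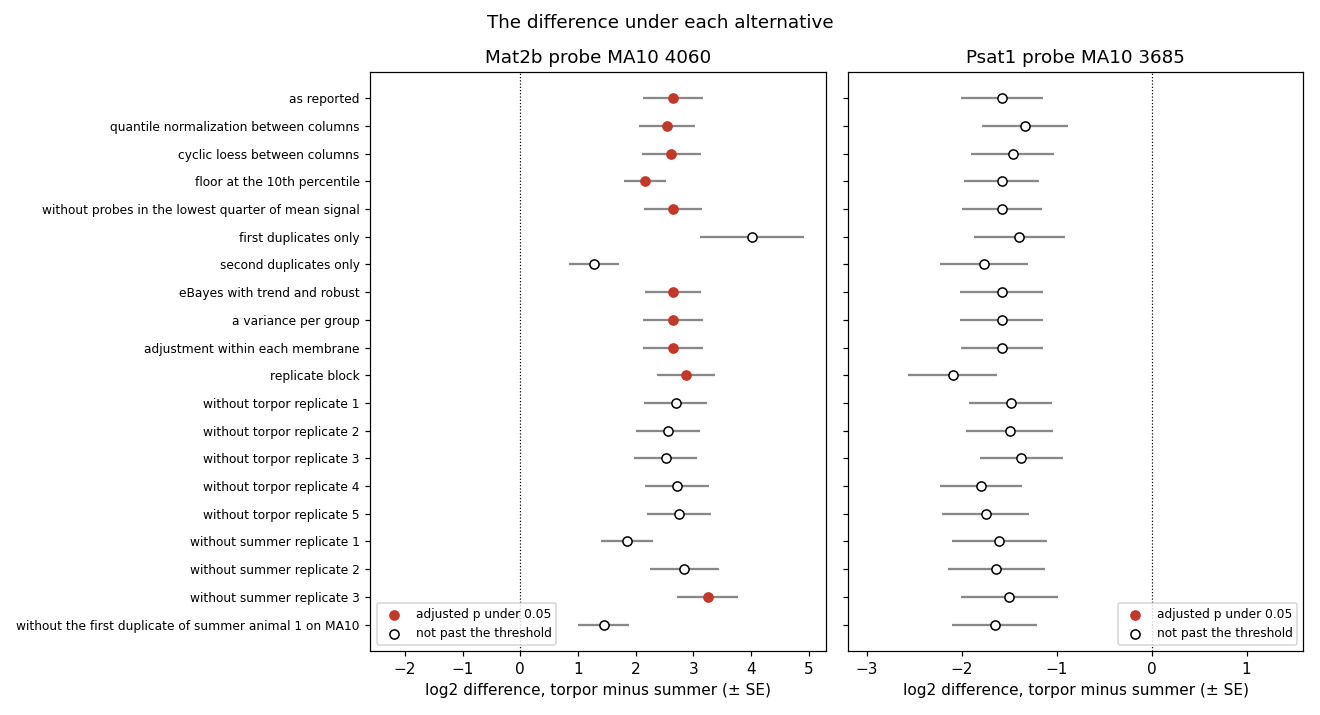
Torpor minus summer (log2, ± SE) for Mat2b probe 4060 and Psat1 probe 3685 under each alternative; filled points have an adjusted p under 0.05. The Mat2b value moves between 1.28 and 4.02 and the Psat1 value between -2.10 and -1.34, and no Psat1 setting passes.

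The other Mat2b probes did not follow probe 4060. Probe 2076, on the same membrane, had levels of 2.53, 3.17, 1.36, 2.48 and 1.73 in torpid animals, against 1.59, 1.56 and 2.5 in summer animals, with overlap. Its difference was 0.37 ± 0.45 (limma adjusted p = 0.78), with an interval from -0.57 to 1.32. Probe 164 on MA08 gave -1.07 ± 0.57 (adjusted p = 0.52), but its mean signal was in the lowest 0.0208% of the membrane, and torpid animal 2 and summer animal 3 were empty there, so that the fit used 4 torpid and 2 summer animals.

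Ahcy, S-adenosylhomocysteine hydrolase, had 3 dim probes on MA07, of which 5408 and 5612 stood at percentiles 11.2 and 7.11 of signal. Probes 594, 5408 and 5612 gave 0.15 ± 0.28, -0.34 ± 0.27 and -0.35 ± 0.28, with intervals that together ran from -0.98 to 0.78. The levels of probe 594 ran from -1.92 to -0.65 in torpid animals and from -1.48 to -1.07 in summer animals, so that the torpid range enclosed the summer one.

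Probes of 1 gene disagreed most for Mat2b, Psat1 and Shmt1. For each of the 24 pairs of probes of the same gene, the difference between the probes was compared between torpid and summer animals with a two-sided exact permutation test over the divisions of the animals, a test chosen after the values were seen. Mat2b probes 4060 and 2076 differed by 2.27 in their torpor minus summer value and Shmt1 probes 3174 and 6171 by 0.91, both at p = 0.018, the smallest p that 56 divisions can give (exact test). Without the first duplicate of summer animal 1 on MA10 the Mat2b value was 1.14 (exact p = 0.14). Psat1 probes 1220 and 3685 differed by 1.43 (exact p = 0.036). Psat1 probes 3685 and 7448, both on MA10, had a difference of differences of -1.69 (exact p = 0.089). Phgdh probes 4762 and 9162, of 1 clone, had a difference of differences of -0.81 (exact p = 0.071). Over the 24 pairs, 3 had an exact p under 0.05 and 0 passed after Benjamini-Hochberg adjustment, the smallest adjusted p being 0.21. With so few animals 9 pairs would have to lie at the smallest p before any could pass, so the adjusted values say little. The 2 pairs with Mat2b probe 164 had 15 divisions and a smallest possible exact p of 0.067. At that p, probes 164 and 4060 had a difference of differences of -4.23. Without the first duplicate of summer animal 1 on MA10 it was -2.43.

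The pattern of Psat1 probe 3685 over the 8 animals was closest to those of Pramel12 (Pearson r = 0.98), Gng11 (0.98) and Rpl35 (0.97) among 5167 single-symbol probes of MA10 with a value in every animal. Gng11 encodes a G protein gamma subunit and Rpl35 a protein of the large ribosomal subunit. Their torpor minus summer differences were -0.54, -1.43 and -2.38, of which that of Rpl35 passed (limma adjusted p = 0.026). Within the groups, on deviations from group means, the same genes correlated with Psat1 at 0.94, 0.93 and 0.93. Mat2b probe 4060 was closest to Cdk5rap2 (r = 0.98), Stbd1 (0.96) and Trmt10c (0.96), with differences of 0.53, 0.91 and 1.21, none past the threshold. Cdk5rap2 encodes a centrosomal protein, Stbd1 a glycogen-binding protein and Trmt10c a subunit of mitochondrial RNase P. Without summer animal 1 these correlations with Mat2b were 0.92, 0.91 and 0.91. All values come from 1 membrane and share its column scaling, and the genes were picked as the highest of 5167 correlations over 8 points, so they are a description.

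Beside the enzymes, 6 lists of neighbouring steps covered 73 further genes with 144 tested probes. Of these, 65 were above 0 and 79 below, the median difference was -0.034, and 0 passed the threshold by limma. Without adjustment, 23 had a limma p under 0.05, of which 16 were higher and 7 lower; this is 16%, against 11.6% of all tested probes. Genes named from each list are the 3 with the smallest p, so their values are the most extreme of many and are given as a description.

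The largest difference of these lists was in polyamine metabolism, which uses decarboxylated S-adenosylmethionine. Sat1, the enzyme that acetylates spermidine and spermine, had levels of 5.18, 3.70, 3.99, 4.06 and 4.73 in torpid animals 1 to 5, against 2.60, 1.75 and 2.96 in summer animals on MA11 (probe 6652). All torpid animals were higher, by 1.90 ± 0.37 (SE), with an adjusted p of 0.061 by limma. The other Sat1 probe, on MA10, gave 0.99 ± 0.55. Its groups overlapped, and torpid animal 3, at -2.46, was the lowest of all animals. Probe 6652 stood at percentile 96.4 of mean signal. The 240 tested probes of MA11 in the same band of mean signal had a median difference of 0.77. In 20% of them the groups did not overlap. The part of brightness in the value of probe 6652 was not tested. Sat1 passed with trended, robust variances (adjusted p = 0.033) and when the dimmest probes were left out (0.030). Spermine synthase, Sms, was positive at both probes (0.76 ± 0.21 and 0.66 ± 0.40), and spermidine synthase, Srm, was negative at all 3 (-0.58 ± 0.19, -0.56 ± 0.21 and -0.24 ± 0.24). The list of 29 probes, which also holds the methionine salvage genes Mtap, Adi1, Enoph1 and Apip, had 10 above 0 and a median of -0.11. By limma 6 of the 29 had an unadjusted p under 0.05, of which 2 were higher and 4 lower. This is 20.7%, against 11.6% of all tested probes.

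Atf4, the transcription factor of the amino acid response, was listed with genes linked to it. These included known targets, and Eif2ak3 and Eif2ak4, which lie upstream of Atf4. In this list 19 of 33 probes were above 0 and the median was 0.12. By limma 6 of the 33 had an unadjusted p under 0.05, of which 5 were higher and 1 lower. This is 18.2%, against 11.6% of all tested probes. Asns, asparagine synthetase, had levels of 2.30, 1.52, 2.10, 2.47 and 1.51 in torpid animals, against 0.59, 0.81 and 0.60 in summer animals on MA11 (probe 2522). All torpid animals were higher, by 1.31 ± 0.27 (limma adjusted p = 0.078). Probe 2522 stood at percentile 85.0 of mean signal, and the tested probes of MA11 between percentiles 80 and 90 had a median difference of 0.25. All 4 Asns probes were positive, from 0.18 upwards, and probe 6372 on MA08, of the same clone as probe 2522, gave 0.88 ± 0.28. Slc7a1, a carrier of cationic amino acids, was also positive at all 3 probes, from 0.57 to 0.87. The highest value was that of probe 1744 on MA11, at percentile 93.2 of mean signal. The tested probes of MA11 between percentiles 90 and 95 had a median difference of 0.59, and in 23.75% of them the groups did not overlap. The part of brightness in the Asns and Slc7a1 values was not tested. Atf4 itself gave -1.67 ± 0.50 on MA10 (adjusted p = 0.19), and 0.11 and -0.10 by the probes on MA08 and MA11, which share a clone. Asns passed with trended, robust variances (adjusted p = 0.031) and without the dimmest probes (0.039).

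The remaining methionine cycle genes had 17 of 27 probes above 0 and a median of 0.12, and 6 had an unadjusted p under 0.05, or 22.2% against 11.6% of all tested probes. All 6 were higher in torpor; they are 2 probes of Adk, 2 of Mmadhc, a gene of cobalamin handling, and 1 each of Ahcyl1 and Bhmt, and Mmadhc was named after its values were seen. Adk, adenosine kinase, which removes the adenosine that Ahcy releases, was positive at its 3 probes, from 0.20 to 0.82 (0.82 ± 0.20 on MA07, limma adjusted p = 0.16). The MA07 probe of Adk was dim, at percentile 13.3 of mean signal, and its difference ran from 0.49 to 0.98 under the alternatives. Ahcyl1, a relative of Ahcy, gave 0.79 ± 0.24 by 1 probe and 0.11 and 0.12 by the others. Bhmt, betaine-homocysteine methyltransferase, gave 0.94 ± 0.38 on MA11, with 1 torpid animal empty, and -0.42 on MA07. The MA11 probe of Bhmt was dim, at percentile 4.12 of mean signal, and its lowest difference under the alternatives was 0.13.

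Other serine and glycine genes had a median of -0.026 over 16 probes. Gcsh, a subunit of the glycine cleavage system, gave 0.41 ± 0.16 on MA07 and -0.17 on MA08, Slc38a2, an amino acid carrier, gave 0.40 ± 0.18, and Sfxn1, a mitochondrial serine carrier, ran from -0.22 to 0.36 over 4 probes. Other folate genes had 7 of 23 probes above 0 and a median of -0.21. Aldh1l2, the mitochondrial formyltetrahydrofolate dehydrogenase, gave -0.88 ± 0.30 (limma adjusted p = 0.29), the reduced folate carrier Slc19a1 gave -0.43 ± 0.26, and the proton-coupled folate carrier Slc46a1 ran from -0.37 to 0.47 over 3 probes. Enzymes of small-molecule methylation and of choline breakdown had 5 of 16 probes above 0 and a median of -0.25. Among them Tpmt, thiopurine methyltransferase, gave 0.99 ± 0.29 (limma adjusted p = 0.21). Its probe stood at percentile 93.9 of mean signal on MA11, where the tested probes between percentiles 90 and 95 had a median difference of 0.59. Gatm, which makes the creatine precursor guanidinoacetate, was negative at both probes (-0.78 ± 0.30 and -0.36 ± 0.22), the first at -0.38 without summer animal 1, and Aldh7a1, which oxidises betaine aldehyde, gave 0.86 on MA10 and -0.22 on MA07.

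**Figure D5:**
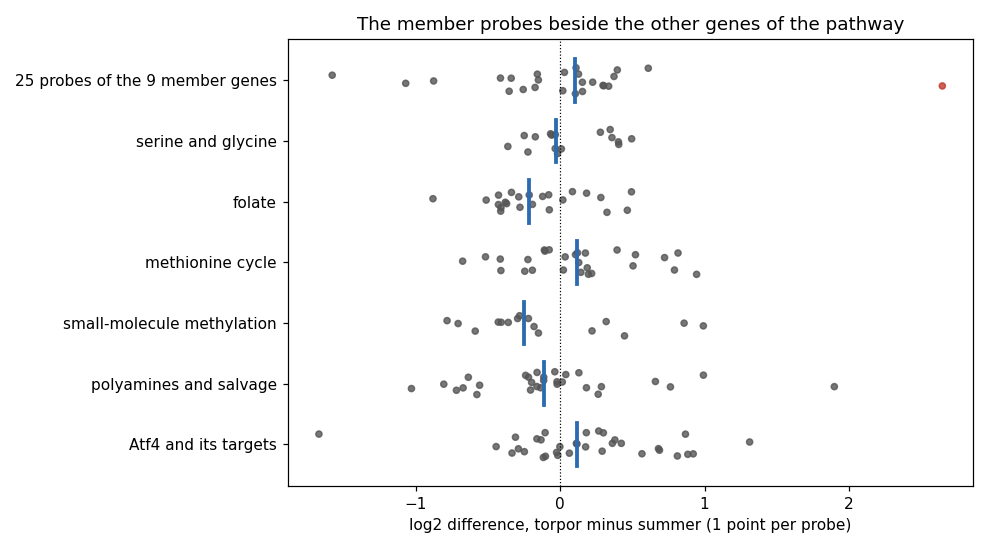
Torpor minus summer (log2, x axis) of each tested probe of the 9 enzyme genes and of the 6 neighbouring lists, with the median of each list as a bar. Medians lie between -0.25 and 0.12, and the single point past the adjusted threshold is Mat2b probe 4060 at 2.65.

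Markers of other cell types gave no called probe by limma. Median differences were -0.040 for white adipocytes (18 probes, 2 with an unadjusted p under 0.05), -0.38 for skeletal muscle (11 probes, 2), -0.27 for immune cells (30 probes, 7, of which 5 were lower), 0.12 for endothelium (15 probes, 2), -0.28 for erythroid cells (3 probes, 0) and 0.011 for nerve (30 probes, 1). The immune share was 23.3%, against 11.6% of all tested probes. The mean levels of torpid and summer animals overlapped for each of these 6 lists. For white adipocytes they ran from 0.82 to 1.01 in torpid animals and from 0.93 to 1.39 in summer animals, and for immune cells from 0.30 to 0.68 in torpid animals and from 0.57 to 0.86 in summer animals. The part of cell composition in the enzyme values was not tested.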

How the data were processed

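Brown adipose RNA of 5 torpid and 3 summer animals was measured on 4 membranes of 9600 probes, in 44 columns (24 of torpid and 20 of summer animals). The authors deposited linear spot intensity values; in the deposited tables each column has a median of 1, counting empty cells as lowest. How the authors read the images and treated background, and why cells are empty, is not given in the sources used here. The number of arrays limits the precision.

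Values were taken to log2, empty cells left missing, and duplicates of 1 RNA averaged on the log2 scale. limma 3.58.1 (R 4.3.3; lmFit and eBayes) was run separately for every membrane, two-sided, on torpor minus summer. It covered the 37848 probes that 2 or more animals of both groups had values for. P-values were adjusted by Benjamini-Hochberg over all of these, with a threshold of 0.05. The fit was tested on simulated data. Symbols came from the platform annotation, which can be old, matched without regard to case; probes with several symbols were left out. The squirrel's RefSeq annotation holds all 10 symbols.

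The member genes, gene lists, alternatives and rules for named genes were chosen with earlier results of these data known. All member probes are named; from each neighbouring list the 3 genes with the smallest p; for Psat1 and Mat2b, the 3 genes most correlated with the probe of smallest p. The lists covered serine and glycine, folate, the methionine cycle, small-molecule methylation, polyamines with methionine salvage, and Atf4 with genes linked to it. Marker lists covered brown and white adipocytes, muscle, immune, endothelial, erythroid and nerve cells. Alternatives covered scaling, a floor, a filter on dim probes, duplicates, variance models, adjustment, a replicate block and each animal left out.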

Additional observations from a re-analysis of the deposited data

Results flagged for a closer look

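Phgdh probe 4762 on MA08 had 1 torpid animal far from the others. Torpid animal 1 stood at 0.25, and the other 4 torpid animals lay between -0.76 and -0.68, so that its gap to the nearest was 0.915 of the range, above Dixon's 95% critical value for 5 samples. Gatm probe 5342 on MA07 had torpid animal 2 at 1.22, below the other torpid animals at 1.70 to 1.77, a gap of 0.864 of the range. Of 43 groups of torpid animals examined, 2 were so marked, and chance marks about 1 in 20.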

How the results depend on the processing

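Of 25 enzyme probes, 1 was called (Mat2b probe 4060 on MA10). The count was 0 with first duplicates only, with second duplicates only and, as chosen after seeing the data, without the first duplicate of summer animal 1 on MA10; it ran from 0 to 1 with 1 animal left out in turn, and stayed at 1 under the other 8 alternatives. The cause of the losses with an animal left out was not tested. For the 144 neighbouring probes the count was 0, and 2 (Sat1 and Asns) without the dimmest probes and with trended, robust variances. Over all probes 117 were called, against 63 with cyclic loess (46 higher and 17 lower, or 73.0% higher, in place of 98 and 19, or 83.8%), 76 with a floor at the 10th percentile, 238 without the dimmest probes, 176 and 38 with first and second duplicates only, 228 with trended, robust variances and from 17 (without torpid animal 2) to 347 (without summer animal 1) with 1 animal left out. Without the first duplicate of summer animal 1 on MA10, 126 were called, 106 of them among the 117, with 91 higher and 35 lower.

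With 1 animal left out, the value of 21 of the 25 enzyme probes and 6 of 18 named neighbouring probes moved by over 1.5 times or changed sign; the exceptions among the enzymes were Psat1 probe 3685, Phgdh probe 4762, Mthfd2 probe 5905 and Mat2b probe 4060. Signs turned only at enzyme probes that were not called. With first duplicates Psat1 probe 7448 gave -0.32, Psph probe 8312 -0.27 and Mthfd2 probe 6295 -0.090; with second duplicates Psat1 probe 1220 gave 0.053, Shmt1 probe 3174 -0.0034 and Mthfd1 probe 8293 -0.45; with a floor Mthfd1 probe 8293 gave -0.064. With 1 animal left out the signs turned for Psat1 probe 7448 (-0.097 to 0.40), Phgdh probe 6645 (-0.45 to 0.018), Psph probes 448 (-0.063 to 0.60) and 8312 (-0.078 to 0.39), Shmt1 probe 3174 (-0.023 to 0.11), Mthfd1 probe 8293 (-0.19 to 0.25) and Mthfd2 probe 6295 (-0.078 to 0.26). The cause was not tested.

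Animals 1 to 3 of both groups share numbers in the labels, which do not state a pairing. Correlations of same-numbered deviations ran from -0.063 to 0.052 over the membranes, and same-numbered animals correlated best in 3 of 12 cases. With so few animals these values cannot settle whether the numbers mark pairs. With the replicate block 29 probes were called in all, Mat2b probe 4060 gave 2.87 (adjusted p = 0.043 by limma) as the 1 enzyme call, and the signs turned for Psat1 probe 1220 (0.0080), Phgdh probe 6645 (0.12), Shmt2 probe 3045 (0.063) and Mthfd1 probe 8293 (-0.22).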
